A study of Mus musculus with 20 samples.

Results

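Complement genes other than those of C1q were followed in whole kidneys of 20 mice. The 9 genes are C3, C4b, C2, Cfb, C1ra, Serping1, Cfi, Cfp and C3ar1, chosen by their symbols as components and regulators that resident kidney cells can make and the receptor of C3a. All 9 were among the 15780 genes listed in the count tables, and all 9 were among the 13990 genes that passed the filter on low counts. The mice were female NCr nude (sp/sp homozygous), 7 weeks old when bought, and athymic, with 5 mice in each of 4 groups. EIC mice received 6 injections of engineered immune complexes over 11 days and vehicle by gavage. The complexes joined human galactose-deficient IgA1 to a human recombinant IgG autoantibody against it. EIC + S60 and EIC + S120 mice received the same injections and sparsentan at 60 or 120 mg/kg daily for 11 days. Control mice received PBS injections and vehicle, and all kidneys were taken on day 12. Sparsentan blocks the endothelin type A receptor and the angiotensin II type 1 receptor. The complexes are human proteins in hosts without a thymus, and the whole kidney was read without separating glomeruli from tubules.

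Complement is a cascade of plasma proteins that marks particles and immune complexes for removal. The classical pathway begins when C1q binds antibody in a complex. Of the proteases bound to C1q, C1r activates C1s, and C1s cuts C4 and C2. The alternative pathway uses factor B in place of C2, and both routes end in the cleavage of C3, which all pathways share. C3a, the small fragment of C3, acts on cells through its own receptor. Most circulating complement comes from the liver, and tubular cells, mesangial cells, fibroblasts and macrophages of the kidney also make components locally. Deposits of C3 are a usual finding beside IgA in the glomeruli of IgA nephropathy.

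Library totals were between 12662345 and 38651781 counts, and Control 651 and Control 652 were the deepest, at 37548347 and 38651781. Markers of proximal tubule and podocytes were present in every library, with 6 of 6 and 5 of 5 markers listed. Their summed levels were 6895 to 11635 CPM (counts scaled to library size) for proximal tubule and 417 to 772 CPM for podocytes. T cell markers summed to 0.560 to 1.79 CPM, from the 2 of 5 markers that were listed. Control 653 stood apart in 3 marker lists, with sums of 335 CPM for adipocytes, 1497 CPM for collecting duct and 24.7 CPM for acute phase genes. In each of the other 19 libraries these sums were at most 84.4, 714 and 12.3 CPM. Alb, which defines hepatocytes, had 225 to 794 counts in every library, and hepatocyte markers summed to 88.6 to 297 CPM. The study's methods state both that mice were divided randomly into groups and that randomisation was not done. The groups were treated at the same time, and cage was not controlled for. Which mice shared a cage is not given in the sources used here, and p-values measure the spread between mice.

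No member passed an adjusted p of 0.05 (edgeR's quasi-likelihood test, two-sided) in any of the 6 comparisons. Against Control most of their LFCs (log2 fold changes) were positive, and C1ra, Serping1 and Cfi had signs that turned in at least 1 of these comparisons when a library was left out. The median LFC was 0.24 in EIC vs. Control, with 7 of 9 LFCs positive, beside a median of -0.01 and 47.6% positive over all genes tested. It was 0.36 in EIC + S60 vs. Control, with 8 of 9 positive, and 0.30 in EIC + S120 vs. Control, with 9 of 9 positive, beside medians of -0.01 over all genes in both and 47.3% and 46.8% of all genes positive. These 3 comparisons share the Control libraries. Against EIC, EIC + S60 had a median of 0.08 and EIC + S120 one of 0.04, with 6 of 9 LFCs positive in each, beside 49.4% and 50.5% of all genes. EIC + S120 vs. EIC + S60 gave a median of -0.08, with 3 of 9 positive, beside 50.2% of all genes.

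In EIC vs. Control, 416 of 13990 genes were called, 2.97% of those tested, and 0 of the 9 members. At an unadjusted p under 0.05, 16.8% of all genes passed, and so did 3 of the 9 members, C2, Cfp and C3ar1, all higher in EIC. DESeq2 and limma-voom also called 0 members there. At an unadjusted p under 0.05 DESeq2 had the same 3 members, and limma-voom had C2 and C3ar1 without Cfp. In EIC + S60 vs. Control, 1.29% of all genes and 0 members were called, and 12.7% of all genes and 4 members, C3, C2, Cfb and C3ar1, had an unadjusted p under 0.05. DESeq2 called 1 member there, C2, and limma-voom 0. By limma-voom C3ar1 was not under an unadjusted p of 0.05. In EIC + S120 vs. Control, 5.55% of all genes and 0 members were called, and 20% of all genes and 2 members, C2 and Cfb, had an unadjusted p under 0.05. DESeq2 and limma-voom called 0 members in that comparison.

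Between the groups that received EIC, edgeR called few genes of any kind. EIC + S60 vs. EIC gave 0% of all genes by edgeR, 5 genes by DESeq2 and 0 by limma-voom, with 6.05% of genes at an unadjusted p under 0.05. None of the 9 members reached an unadjusted p under 0.05 there by any of these 3 tools. EIC + S120 vs. EIC gave 0.0572% of all genes and 0 members, and 8.45% of genes at an unadjusted p under 0.05. C3ar1, lower in EIC + S120, was the member among them. DESeq2 added Cfp, and limma-voom had 0 members at an unadjusted p under 0.05. Over all genes DESeq2 called 65 there and limma-voom 9, against 8 by edgeR. EIC + S120 vs. EIC + S60 gave 0.0643% of all genes and 0 members, with 8.08% of genes and 0 members at an unadjusted p under 0.05. Its 9 calls over all genes by edgeR were 81 by DESeq2 and 8 by limma-voom, and 54 by edgeR without EIC + S120 77. DESeq2 and limma-voom called 0 members in each of these 3 comparisons.

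**Figure D1:**
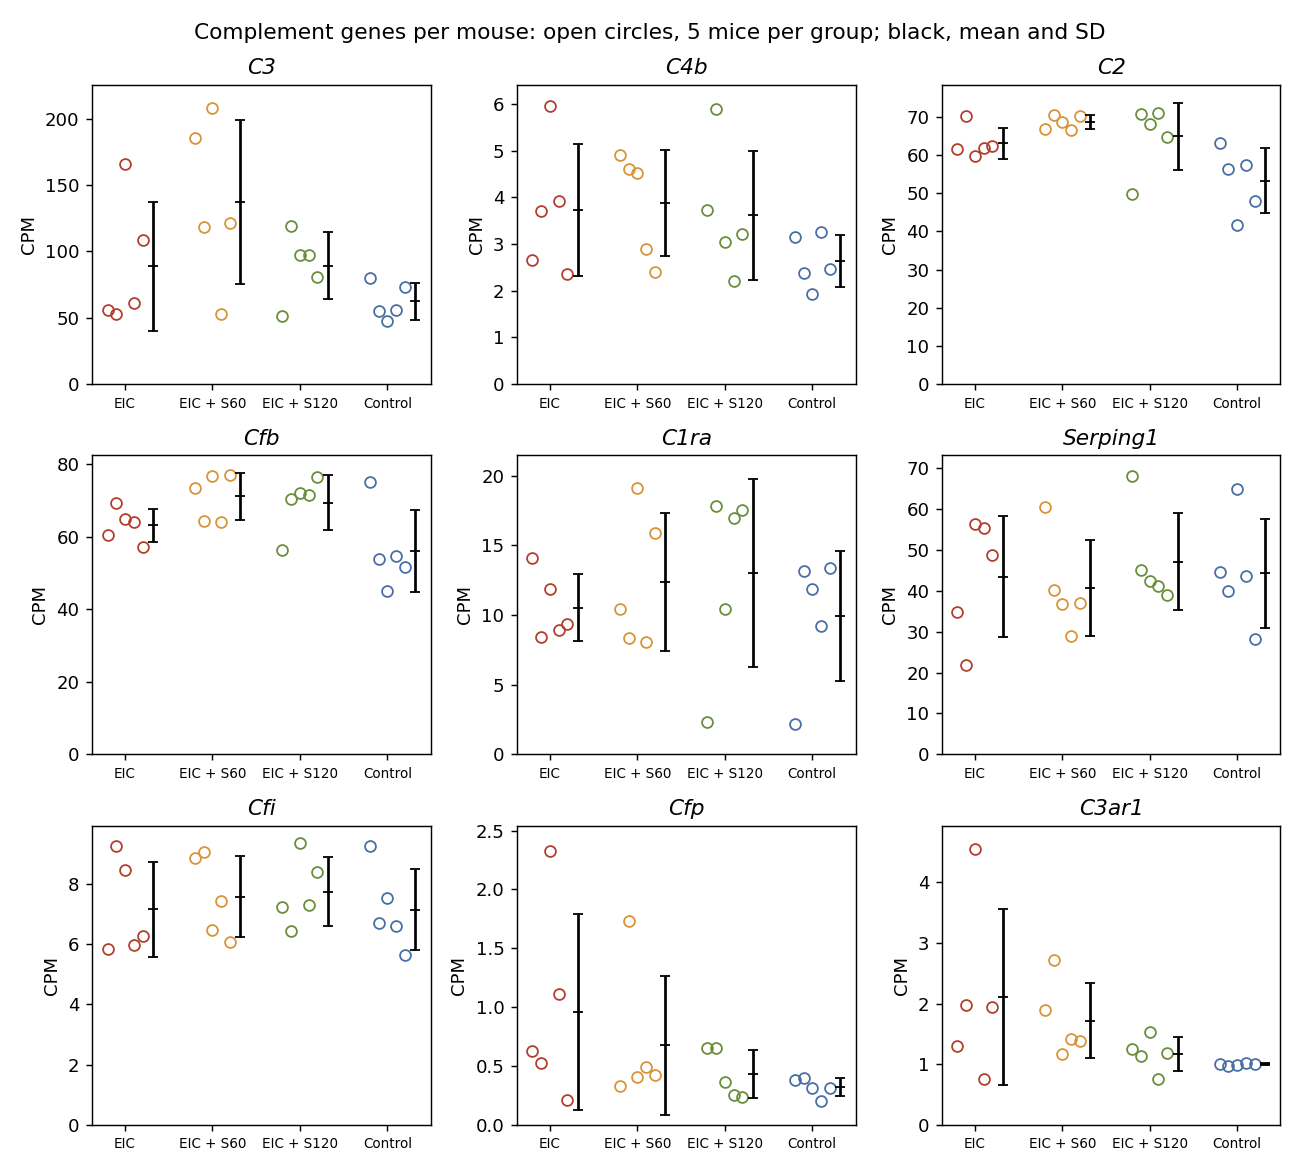
Level of each of the 9 genes in CPM (y axis, starting at 0) in EIC, EIC + S60, EIC + S120 and Control; circles are single mice in order of their number, and the black mark and bar give the mean and SD of 5 mice. C2 and C3ar1 in EIC + S60 lie above every Control mouse, while C1ra has single mice near 2 CPM in EIC + S120 and Control and C3ar1 has 1 EIC mouse at 4.55 CPM.

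Per base of exon, the 9 genes fell into an abundant and a scarce set. Over the 20 libraries, Cfb averaged 23.0 ± 3.34 RPKM (SD), Serping1 18.9 ± 5.23, C3 18.4 ± 9.21 and C2 16.1 ± 2.15. C1ra and Cfi were lower, at 3.85 ± 1.58 and 3.33 ± 0.577 RPKM. C4b, C3ar1 and Cfp were scarce, at 0.608 ± 0.209, 0.348 ± 0.201 and 0.344 ± 0.312 RPKM. Serping1 and C3 stood next to each other well within their SDs, as did C1ra and Cfi, and C3ar1 and Cfp. Between mice the order was another one. The level in the highest mouse over that in the lowest was 11.4 for Cfp, 8.76 for C1ra, 6.01 for C3ar1 and 4.41 for C3, against 3.11 for Serping1, 3.10 for C4b, 1.71 for Cfb, 1.70 for C2 and 1.66 for Cfi. Cfp had 3 to 41 counts per library and C3ar1 12 to 80, so part of their spread is counting error.

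C3, the component on which all pathways meet, lies on chromosome 17 (57203970 to 57228136, minus strand, GRCm38) and was the member with the widest spread among the abundant ones. EIC mice 65 to 69 had 55.7, 52.6, 166, 61.4 and 109 CPM. EIC + S60 mice 71 to 75 had 185, 119, 209, 52.6 and 121.4 CPM, and EIC + S120 mice 77 to 81 had 51.1, 119, 97.5, 97.6 and 80.6 CPM. Control mice 651 to 655 had 80.1, 55.0, 47.3, 55.6 and 73.2 CPM. In EIC, 2 of 5 mice were above every Control mouse, and in EIC + S60 and EIC + S120 4 of 5 were, so each group overlapped Control.

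C3 averaged 137 ± 61.6 CPM in EIC + S60 and 62.3 ± 13.8 CPM in Control (SD, n = 5 each), an LFC of 1.14 (SE 0.37, adjusted p = 0.163). The LFC was between 0.94 and 1.34 when each library in turn was left out, with adjusted p between 0.0704 and 0.362. EIC averaged 88.8 ± 48.7 CPM, an LFC of 0.51 against Control (SE 0.37, adjusted p = 0.523 by edgeR), and without EIC 67, the highest EIC mouse, that LFC was 0.16. EIC + S120 averaged 89.2 ± 25.2 CPM, an LFC of 0.52 against Control (adjusted p = 0.464) and of 0.01 against EIC (adjusted p = 0.999). For EIC + S60 vs. EIC the LFC of C3 was 0.63 (adjusted p = 0.829), and for EIC + S120 vs. EIC + S60 it was -0.62 (adjusted p = 0.735).

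The genes whose log2 CPM followed that of C3 most closely over the 20 libraries were Tgfbi, an extracellular matrix protein induced by TGF-beta (Pearson's r = 0.76), Ttyh3 (r = 0.75) and Ifnar2, a chain of the type I interferon receptor (r = 0.74). With group means removed, the values were 0.70, 0.69 and 0.72. Spearman's rho of C3 with Tgfbi was 0.77, and r was 0.70 without EIC + S60 71 and 73, the libraries farthest from the median of C3. Within the 5 EIC + S120 mice alone, C3 and Tgfbi did not rise together, and their coefficient was below 0. These coefficients share the library of each point and serve as descriptions. The C3 promoter, from 250 bases before to 50 after the start of the transcript in RefSeq, held 1 match to the C/EBP motif. It is shown because C/EBP factors are known regulators of C3 in acute phase responses, with the match in capitals (chromosome 17, 57228087 to 57228386, minus strand, GRCm38.p6).
C3 promoter: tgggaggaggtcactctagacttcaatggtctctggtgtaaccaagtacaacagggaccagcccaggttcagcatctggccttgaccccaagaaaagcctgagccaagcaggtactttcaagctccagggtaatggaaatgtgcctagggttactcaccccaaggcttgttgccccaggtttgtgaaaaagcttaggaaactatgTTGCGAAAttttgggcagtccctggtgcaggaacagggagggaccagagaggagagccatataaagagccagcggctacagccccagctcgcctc
The match begins 45 bases before the start. The motif was searched as TTGCNNAA on both strands, and 10.8% of 32851 RefSeq promoters of this length held a match. The promoters of 4 of the 9 members were in the table (C3, C1ra, C3ar1 and Cfp). Neither the interferon-gamma-activated site (GAS, TTCNNNGAA, in 8.30% of promoters) nor the interferon-stimulated response element (ISRE, GAAANNGAA, in 8.56%) nor a kappaB site (in 4.51%) had a match in the C3 window. The windows of C3ar1 and Cfp held no match to any of the 4 motifs.

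C2 and Cfb, the paired proteases of the classical and alternative C3 convertases, are neighbours on chromosome 17, with C2 at 34862604 to 34898265 and Cfb at 34856374 to 34862518 (both minus strand). The annotated locus Gm20547 overlaps both and was not a row of the tables. The strand setting of the counting is not known, and reads of the overlap may have been assigned to neither gene. They had the smallest SEs of the 9 members, 0.10 and 0.11 on the log2 scale, and they moved together between mice (r = 0.86 over 20 libraries, and 0.77 with group means removed). The relation was clearest in EIC + S120 and Control and weakest in EIC + S60, where mouse 72 had the highest C2 and nearly the lowest Cfb of its group.

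For C2, EIC mice 65 to 69 had 61.5, 70.3, 59.7, 61.8 and 62.4 CPM. EIC + S60 mice 71 to 75 had 66.9, 70.6, 68.7, 66.6 and 70.3 CPM, and EIC + S120 mice 77 to 81 had 49.8, 70.9, 68.2, 71.1 and 64.9 CPM. Control mice 651 to 655 had 63.2, 56.4, 41.8, 57.3 and 48.0 CPM. Every EIC + S60 mouse was above every Control mouse, as were 4 of 5 EIC + S120 mice and 1 of 5 EIC mice. Of all genes tested, 2.07% were higher in EIC + S60 without overlap with Control, and of the 9 members C2 and C3ar1 were.

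C2 averaged 68.6 ± 1.85 CPM in EIC + S60 and 53.4 ± 8.43 CPM in Control (SD, n = 5 each), an LFC of 0.36 (SE 0.10, adjusted p = 0.0704). Counting error alone would give an SD of 1.93 CPM in EIC + S60, so the narrow range there is no measure of its spread. DESeq2 gave the same LFC of 0.36 with an adjusted p of 0.0264, and limma-voom an adjusted p of 0.0653. EIC + S120 averaged 65.0 ± 8.84 CPM, an LFC of 0.28 against Control (SE 0.10, adjusted p = 0.0962 by edgeR). EIC averaged 63.1 ± 4.11 CPM, an LFC of 0.24 against Control (SE 0.10, adjusted p = 0.200 by edgeR). Between the groups that received EIC, the LFCs of C2 were 0.12 for EIC + S60 vs. EIC, 0.04 for EIC + S120 vs. EIC and -0.08 for EIC + S120 vs. EIC + S60 (adjusted p = 0.882, 0.948 and 0.913 by edgeR).

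For Cfb, EIC mice 65 to 69 had 60.6, 69.3, 64.8, 64.2 and 57.1 CPM. EIC + S60 mice 71 to 75 had 73.6, 64.5, 76.7, 64.1 and 77.2 CPM, and EIC + S120 mice 77 to 81 had 56.5, 70.4, 72.0, 71.6 and 76.6 CPM. Control mice 651 to 655 had 75.0, 53.8, 45.1, 54.8 and 51.6 CPM. Control 651 was above every EIC mouse, and the other 4 Control mice were below every EIC mouse. Without Control 651, C2 and Cfb were the 2 members higher in EIC without overlap, as were 2.82% of all genes, beside 0 members and 1.97% of all genes with every library kept. The LFC against Control was 0.34 for EIC + S60 (SE 0.11, adjusted p = 0.132), 0.30 for EIC + S120 (adjusted p = 0.104) and 0.17 for EIC (adjusted p = 0.457), all by edgeR. Means were 71.2 ± 6.45 CPM in EIC + S60, 69.4 ± 7.61 CPM in EIC + S120, 63.2 ± 4.61 CPM in EIC and 56.1 ± 11.3 CPM in Control (SD, n = 5 each). The LFCs of Cfb were 0.17 for EIC + S60 vs. EIC, 0.13 for EIC + S120 vs. EIC and -0.04 for EIC + S120 vs. EIC + S60 (adjusted p = 0.842, 0.758 and 0.969 by edgeR).

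Single libraries decided whether C2 and Cfb were called against Control. Without Control 651, Cfb was called by edgeR in EIC + S60 vs. Control (LFC 0.47, adjusted p = 0.00453) and in EIC + S120 vs. Control (LFC 0.44, adjusted p = 0.00365). Without that library C2 was called in both as well, with LFCs of 0.43 (adjusted p = 0.0252) and 0.35 (adjusted p = 0.0346). Over all genes, that fit called 224 in EIC + S60 vs. Control, beside 180 with every library kept. Without EIC + S120 77, the lowest EIC + S120 mouse for both genes, C2 was called in both comparisons (adjusted p = 0.0229 and 0.0106) and Cfb in EIC + S120 vs. Control (adjusted p = 0.033). In that fit 1172 of all genes were called in EIC + S120 vs. Control, beside 777 with every library kept. Leaving out Control 653, the lowest Control mouse, moved the other way, and the adjusted p of Cfb was then 0.316 in EIC + S60 vs. Control. Over all 20 fits with 1 library left out, edgeR's adjusted p of C2 ran between 0.0229 and 0.171 in EIC + S60 vs. Control and between 0.0106 and 0.222 in EIC + S120 vs. Control. In EIC vs. Control neither gene was called in any of these 20 fits, with lowest adjusted p of 0.0973 for C2 and 0.0641 for Cfb. With both Control 651 and EIC + S120 77 left out, an alternative added after their values were seen, both genes were called in all 3 comparisons against Control. The LFCs of EIC vs. Control were then 0.32 for C2 (adjusted p = 0.0316) and 0.31 for Cfb (adjusted p = 0.0271).

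**Figure D2:**
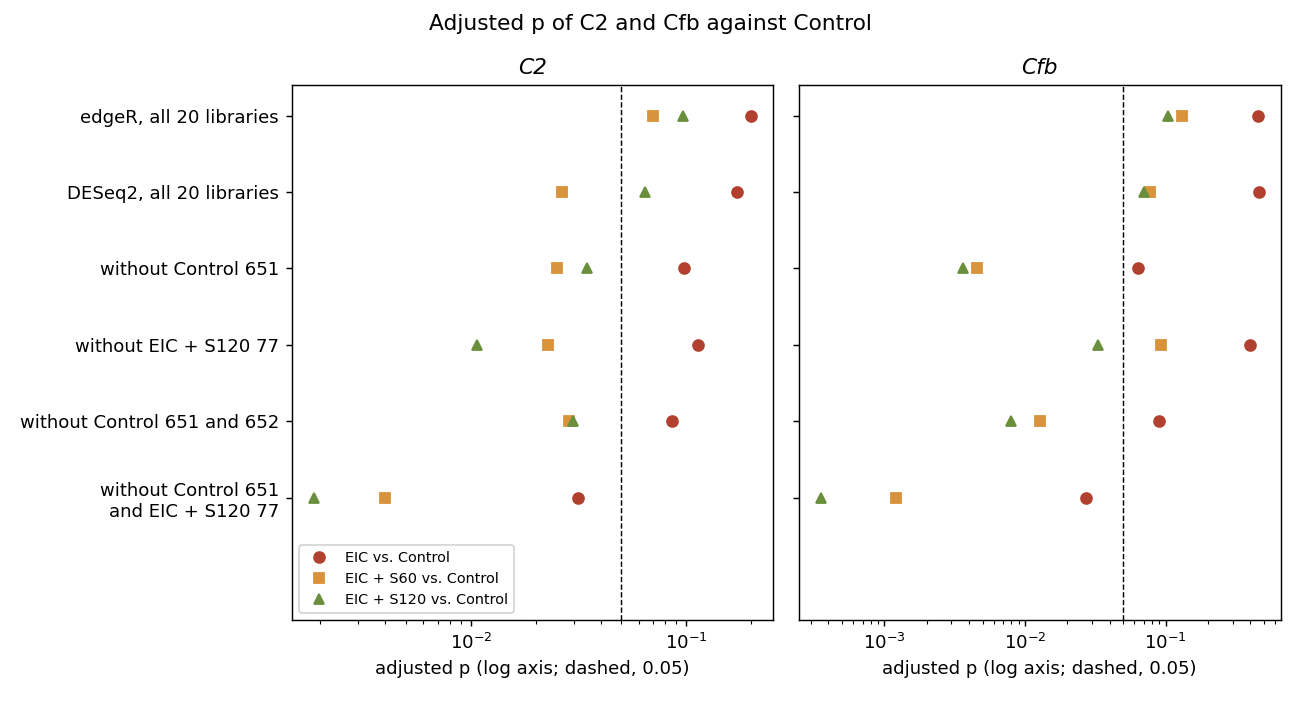
Adjusted p of C2 (left) and Cfb (right) against Control on a log axis, for EIC (circles), EIC + S60 (squares) and EIC + S120 (triangles), with the tool or the libraries left out on the y axis. With all 20 libraries edgeR put every point right of the dashed line at 0.05, and without both Control 651 and EIC + S120 77 every point lay left of it.

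Levels of C2 and Cfb followed a few genes closely from mouse to mouse. Cfb was closest to Myo7b, a myosin of the brush border (r = 0.94), Cndp1 (r = 0.91) and Ap3b1 (r = 0.91), and C2 to Tmbim6 (r = 0.92), Cndp1 (r = 0.89) and Slc22a18 (r = 0.89). For Cfb and Myo7b, Spearman's rho was 0.92, and r was 0.93 without Control 653 and 655, the libraries farthest from the median of Cfb. The summed level of 6 proximal tubule markers had r = 0.79 with Cfb and r = 0.70 with C2 over the 20 libraries, and 0.78 and 0.71 with group means removed. By rank, this sum had rho = 0.67 with Cfb and 0.54 with C2. That sum was lowest in Control 653 (6895 CPM), the lowest library for both genes, and highest in Control 651 (11635 CPM), the highest Control library for both. In EIC + S120 it was lowest in mouse 77 (8439 CPM). In EIC + S60 it was lowest in mouse 72 (8363 CPM), which had the highest C2 of that group. Its group medians were 8636 CPM in EIC, 11200 CPM in EIC + S60, 10574 CPM in EIC + S120 and 9317 CPM in Control, and no proximal tubule marker was called by edgeR in any comparison. The adipocyte sum, at 335 CPM in Control 653, ran opposite to C2 (r = -0.70, rho = -0.49) and Cfb (r = -0.66, rho = -0.54). So did the collecting duct sum (r = -0.70 with each, rho = -0.62 with C2 and -0.58 with Cfb). The sum for thick ascending limb and distal tubule had r = -0.71 with Cfb. In bulk tissue a larger share of a cell type cannot be told apart from more RNA per cell, and the part of these markers in the levels of C2 and Cfb was not tested.

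C4b, the gene of component C4, lies at 34728380 to 34743882 of chromosome 17. It had 31 to 117 counts per library and lay between 1.93 CPM in Control 653 and 5.97 CPM in EIC 67. Means were 3.72 ± 1.42 CPM in EIC, 3.87 ± 1.14 CPM in EIC + S60, 3.62 ± 1.38 CPM in EIC + S120 and 2.64 ± 0.56 CPM in Control (SD, n = 5 each). The LFCs against Control were 0.49, 0.54 and 0.45 for EIC, EIC + S60 and EIC + S120 (SE 0.26 each, adjusted p = 0.385, 0.430 and 0.381 by edgeR), and every group overlapped Control. Without EIC 67 the LFC of EIC vs. Control was 0.25, and without EIC + S120 78 that of EIC + S120 vs. Control was 0.21. Between the groups that received EIC, C4b had LFCs against EIC of 0.05 at the lower dose and -0.04 at the higher, and -0.08 for EIC + S120 against EIC + S60 (lowest adjusted p = 0.974). Transcripts of C4b and of its paralog C4a are 95.8% identical and share 16.5% of their windows of 100 bases, so reads of one may have been assigned to the other or lost. C4a was not among the genes listed, so no level of it could be set beside that of C4b.

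C1ra, which encodes the protease C1r, varied more between mice of a group than between groups. It lies on chromosome 6 (124512405 to 124523443, plus strand), next to C1s1 (124530345 to 124542359, minus strand), the gene of C1s, and to its own copy C1rb (124570294 to 124581171, plus strand). EIC mice 65 to 69 had 14.1, 8.43, 11.9, 8.94 and 9.35 CPM of C1ra. EIC + S60 mice 71 to 75 had 10.4, 8.37, 19.1, 8.04 and 15.9 CPM, and EIC + S120 mice 77 to 81 had 2.31, 17.9, 10.4, 17.0 and 17.6 CPM. Control mice 651 to 655 had 2.18, 13.1, 11.9, 9.18 and 13.4 CPM. The lowest level was in EIC + S120 77 and Control 651, and the groups overlapped in all 6 comparisons. The LFC against Control was 0.10 for EIC, 0.34 for EIC + S60 and 0.41 for EIC + S120 (SE 0.54 each, adjusted p = 0.947, 0.822 and 0.681 by edgeR). Without Control 651 these LFCs were -0.16, 0.06 and 0.13. Against EIC, C1ra had an LFC of 0.23 with the lower dose and 0.30 with the higher, and between the doses (EIC + S120 vs. EIC + S60) it had 0.07 (lowest adjusted p = 0.906).

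The coding sequences of C1ra and C1rb, of 2124 and 2121 bases, are 97.9% identical, with 40 mismatches and 5 gap positions, and 43.7% of the 100-base windows of C1ra occur in C1rb. The 120 coding bases in which the genes differ most are shown because reads over them can tell the copies apart, unlike reads over the shared windows. They lie within 1 exon of each gene (C1ra chr6:124522617-124522736, C1rb chr6:124580663-124580782, GRCm38, plus strand), with the 13 differing bases in capitals.
C1ra: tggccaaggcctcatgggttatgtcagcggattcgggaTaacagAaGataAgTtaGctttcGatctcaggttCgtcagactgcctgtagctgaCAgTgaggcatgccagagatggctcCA
C1rb: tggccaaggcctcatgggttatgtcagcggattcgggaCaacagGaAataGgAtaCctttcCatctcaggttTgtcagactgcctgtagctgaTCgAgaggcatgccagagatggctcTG

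The share of C1rb in the summed CPM of C1ra and C1rb took 3 separate ranges over the 20 libraries. In 9 libraries it was 2.96% to 5.45%, in 9 others 31.3% to 39.3%, and in 2 it was 84.9% (EIC + S120 77) and 80.2% (Control 651). The exact 95% binomial (Clopper-Pearson) intervals were 79.9% to 89.0% for EIC + S120 77 and 76.1% to 84.0% for Control 651, and they cover counting error only. Each range held mice of more than 1 group. The low range held EIC 65, EIC + S60 73 and 75, EIC + S120 78, 80 and 81, and Control 652, 653 and 655. The middle range held EIC 66 to 69, EIC + S60 71, 72 and 74, EIC + S120 79 and Control 654. These ranges were read off after the values were seen, carry no test and are not groups of the study.

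C1s1 was lowest in the libraries where C1rb took the largest share. It had 12.02, 4.88, 10.5, 6.08 and 7.46 CPM in EIC mice 65 to 69, and 10.4, 7.10, 17.3, 6.18 and 15.8 CPM in EIC + S60 mice 71 to 75. EIC + S120 mice 77 to 81 had 0.415, 20.8, 8.13, 15.1 and 15.6 CPM, and Control mice 651 to 655 had 0, 12.6, 9.51, 7.75 and 10.6 CPM. EIC + S120 77 had 7 counts of C1s1. Control 651 had 0 counts, which allows a level of up to 0.0809 CPM (3 counts), although it was among the deepest libraries. C1s1 was the gene most like C1ra in log2 CPM. No coefficient is given for the pair, since the libraries fall into separate ranges. C1rl, the C1r-like gene, had 31.5 to 44.4 CPM over the 20 libraries.

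**Figure D3:**
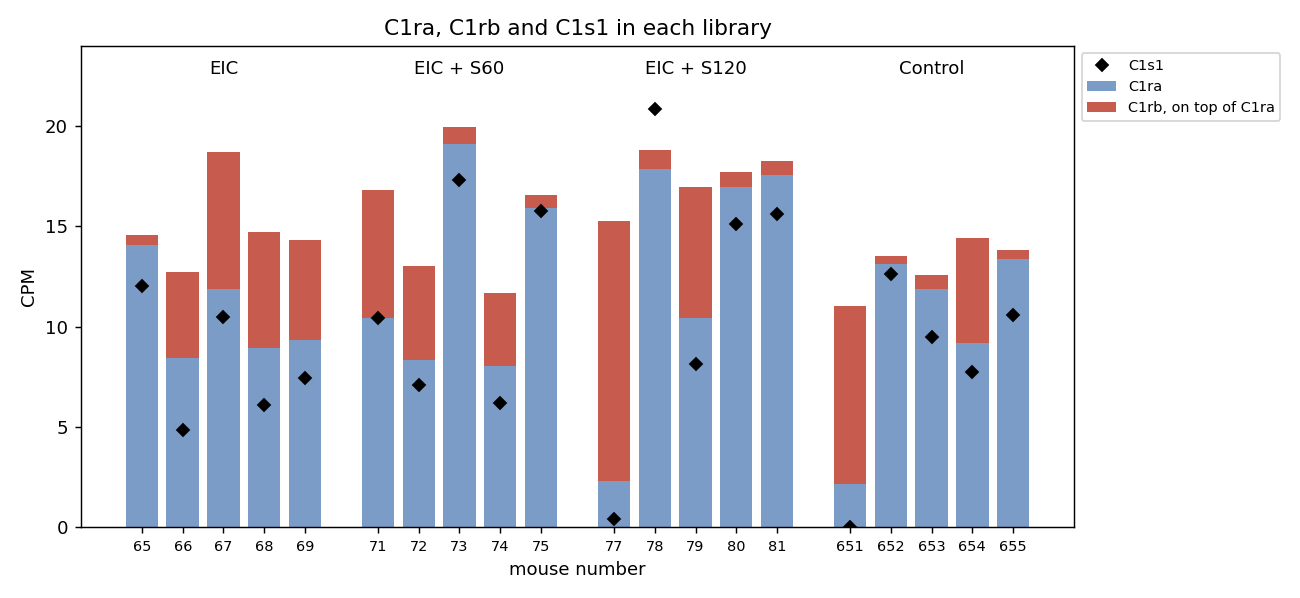
CPM (y axis) of C1ra (blue bars) with C1rb stacked on it (red) and of C1s1 (black diamonds, not stacked) in each of the 20 libraries, by mouse number and group. C1rb makes up most of the bar in EIC + S120 77 and Control 651, where C1s1 is at 0.415 and 0 CPM, while the summed bars run between 11.1 and 19.9 CPM.

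The sum of C1ra and C1rb varied much less, between 11.1 CPM in Control 651 and 19.9 CPM in EIC + S60 73. It averaged 15.02 ± 2.21 CPM in EIC, 15.6 ± 3.28 CPM in EIC + S60, 17.4 ± 1.37 CPM in EIC + S120 and 13.1 ± 1.32 CPM in Control (SD, n = 5 each). Every EIC + S120 mouse was above every Control mouse in this sum, as in 2.79% of all genes tested. Counted as 1 feature, an alternative added after the counts were seen, C1ra and C1rb gave an LFC of 0.42 in EIC + S120 vs. Control (adjusted p = 0.0523). The LFC of the sum was 0.20 in EIC vs. Control (adjusted p = 0.436) and 0.26 in EIC + S60 vs. Control (adjusted p = 0.387). Against EIC it was 0.06 for EIC + S60 (adjusted p = 0.970) and 0.21 for EIC + S120 (adjusted p = 0.652).

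The windows around the RefSeq starts of the copies share their letters over part of their length but at different distances from those starts. They are shown because the same GAS and C/EBP matches, in capitals, stand in both (RefSeq, chromosome 6, plus strand, GRCm38.p6, C1ra 124512371 to 124512670, C1rb 124570180 to 124570479).
C1ra promoter: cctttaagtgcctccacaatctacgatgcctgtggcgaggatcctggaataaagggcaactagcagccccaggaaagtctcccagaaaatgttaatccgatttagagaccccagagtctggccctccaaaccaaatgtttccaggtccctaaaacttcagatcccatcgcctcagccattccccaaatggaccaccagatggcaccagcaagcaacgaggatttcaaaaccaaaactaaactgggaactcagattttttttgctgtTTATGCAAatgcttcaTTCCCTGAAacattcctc
C1rb promoter: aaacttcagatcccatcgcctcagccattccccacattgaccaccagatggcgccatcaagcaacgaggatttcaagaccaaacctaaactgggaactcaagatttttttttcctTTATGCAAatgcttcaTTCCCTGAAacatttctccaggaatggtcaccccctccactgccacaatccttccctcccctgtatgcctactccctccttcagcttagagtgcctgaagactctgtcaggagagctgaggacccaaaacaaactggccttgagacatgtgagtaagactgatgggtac
In C1ra the C/EBP match begins at position 17 and the GAS match at position 33 after the RefSeq start, and in C1rb at 135 and 119 bases before it. The gene spans given above, from GENCODE, begin at 124512405 for C1ra and 124570294 for C1rb, which are other starts than those of RefSeq. Whether a match lies before or after the start therefore depends on the annotation. A match describes these letters only.

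Serping1, which encodes the C1 inhibitor that dissociates C1r and C1s from C1q, lies on chromosome 2 (84765387 to 84775444, minus strand). EIC mice 65 to 69 had 34.7, 21.8, 56.2, 55.4 and 48.8 CPM. In EIC + S60 mice 71 to 75 the levels were 60.4, 40.3, 36.7, 28.8 and 37.1 CPM, and EIC + S120 mice 77 to 81 had 68.0, 45.2, 42.3, 41.2 and 38.9 CPM. In Control mice 651 to 655 the levels were 44.5, 39.8, 64.9, 43.7 and 28.2 CPM. All groups overlapped, and the LFCs against Control were -0.03 for EIC, -0.13 for EIC + S60 and 0.09 for EIC + S120 (SE 0.27 each, adjusted p = 0.975, 0.889 and 0.884 by edgeR). Against EIC, the LFC of EIC + S60 was -0.10 and that of EIC + S120 was 0.12. The sign of each of these 5 LFCs turned when 1 library or another was left out. Between the doses, EIC + S120 over EIC + S60, the LFC was 0.22 (adjusted p = 0.913).

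From mouse to mouse, Serping1 followed a few genes closely. Its closest genes were Fmnl2, Pdgfra, a receptor that marks fibroblasts, and Timp2, an inhibitor of matrix metalloproteases (r = 0.90, 0.90 and 0.89). For Pdgfra the value was 0.92 with group means removed, and 0.82 without EIC + S120 77 and EIC 66, the mice farthest from the median of Serping1. EIC + S120 77 was highest in both genes, with 52.1 CPM of Pdgfra, and EIC 66 was lowest in both, with 10.6 CPM. The summed level of the 7 fibroblast markers had r = 0.81 with Serping1. It was 262 CPM in EIC + S120 77 and 69.1 CPM in EIC 66. Its group medians were 163 CPM in EIC, 175 CPM in EIC + S60, 167 CPM in EIC + S120 and 150 CPM in Control. Other sums rose with Serping1 as well, with r = 0.70 for acute phase genes, 0.59 for endothelium and 0.53 for adipocytes. The proximal tubule sum ran opposite to it (r = -0.55). The part of any cell type in the level of Serping1 was not tested.

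**Figure D4:**
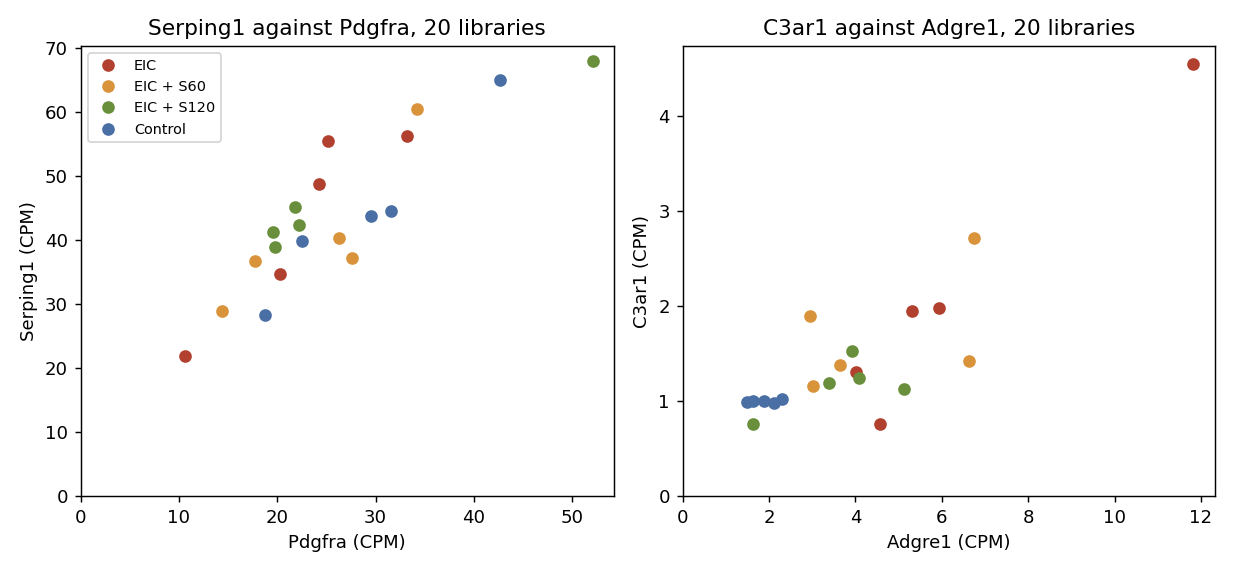
Left, Serping1 against the fibroblast marker Pdgfra, and right, C3ar1 against the macrophage marker Adgre1, both axes in CPM, 1 point per library coloured by group. The 20 points of Serping1 rise with Pdgfra in all 4 groups, and EIC 67 lies apart at 4.55 CPM of C3ar1 and 11.8 CPM of Adgre1.

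Cfi, which encodes the protease factor I that inactivates C3b and C4b, lies on chromosome 3 (129835884 to 129875332, plus strand) and had 5.65 to 9.35 CPM over the 20 libraries. Means were 7.15 ± 1.58 CPM in EIC, 7.58 ± 1.35 CPM in EIC + S60, 7.74 ± 1.14 CPM in EIC + S120 and 7.14 ± 1.35 CPM in Control (SD, n = 5 each). All 6 LFCs of Cfi were between -0.01 and 0.12 with an SE of 0.16. Its closest genes were no closer than r = 0.67 (Syt7), 0.66 (Gtf2ird2) and 0.64 (Dock2).

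Cfp, on chromosome X (20925454 to 20931555, minus strand), encodes properdin, which stabilises the alternative pathway convertase and is made mainly by myeloid cells. EIC mice 65 to 69 had 0.627, 0.523, 2.33, 1.11 and 0.210 CPM. In EIC + S60 mice 71 to 75 the levels were 0.328, 1.73, 0.407, 0.492 and 0.424 CPM, and EIC + S120 mice 77 to 81 had 0.652, 0.655, 0.367, 0.252 and 0.238 CPM. In Control mice 651 to 655 the levels were 0.377, 0.401, 0.311, 0.204 and 0.309 CPM. In EIC, 4 of 5 mice were above every Control mouse, and EIC 69 lay within Control. The LFC of EIC vs. Control was 1.49 (SE 0.46, adjusted p = 0.151 by edgeR) and fell to 0.86 (adjusted p = 0.456) without EIC 67. It was 0.99 in EIC + S60 vs. Control (adjusted p = 0.489), and 0.30 without EIC + S60 72. EIC + S120 vs. EIC gave -1.12 (adjusted p = 0.593), and -0.49 without EIC 67. The other LFCs of Cfp were 0.37 in EIC + S120 vs. Control, -0.50 for EIC + S60 against EIC, and -0.62 for EIC + S120 against EIC + S60 (adjusted p = 0.782, 0.913 and 0.862).

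C3ar1, the receptor of C3a, lies on chromosome 6 (122847138 to 122856161, minus strand) and is known from myeloid cells. EIC mice 65 to 69 had 1.30, 1.98, 4.55, 0.760 and 1.94 CPM. In EIC + S60 mice 71 to 75 the levels were 1.90, 2.71, 1.16, 1.42 and 1.38 CPM, and EIC + S120 mice 77 to 81 had 1.24, 1.13, 1.53, 0.756 and 1.19 CPM. In Control mice 651 to 655 the levels were 0.997, 0.978, 0.995, 1.02 and 1.01 CPM, an SD of 0.0151 CPM. Counting error alone would give an SD of 0.228 CPM at the 13 to 39 counts of C3ar1 in these libraries, so the narrow range of Control is less than counting predicts and is no measure of its spread. All 5 EIC + S60 mice were above every Control mouse, as were 4 of 5 in EIC and in EIC + S120, and the remaining mouse of EIC and of EIC + S120 was below every Control mouse.

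C3ar1 averaged 2.11 ± 1.45 CPM in EIC and 0.999 ± 0.0151 CPM in Control (SD, n = 5 each), an LFC of 1.07 (SE 0.32, adjusted p = 0.102). Leaving EIC 67 out gave 0.58 (adjusted p = 0.349), and without EIC 68 it was 1.29 and was called (adjusted p = 0.0389). EIC + S60 averaged 1.72 ± 0.619 CPM, an LFC of 0.77 against Control (adjusted p = 0.358). EIC + S120 averaged 1.17 ± 0.277 CPM, an LFC of 0.23 against Control (adjusted p = 0.774) and of -0.84 against EIC (adjusted p = 0.508). Without EIC 67 the LFC of EIC + S120 vs. EIC was -0.35. For EIC + S60 vs. EIC it was -0.30 (adjusted p = 0.926), and 0.19 without EIC 67. Between the doses (EIC + S120 vs. EIC + S60) the value was -0.54 (adjusted p = 0.770).

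EIC 67 was also the mouse with the highest macrophage markers. Adgre1, which defines kidney macrophages, had 4.01, 5.93, 11.8, 4.56 and 5.31 CPM in EIC mice 65 to 69 and 1.49 to 2.31 CPM in Control. Adgre1 was higher in EIC than in Control (LFC 1.73, SE 0.31, edgeR adjusted p = 0.0059). The 10 macrophage and monocyte markers summed to 240 CPM in EIC 67. Of the 9 tested markers, 3 were called higher in EIC vs. Control, beside 1.61% of all genes. The group medians of the macrophage sum were 119 CPM in EIC and 106 CPM in EIC + S60. They were 99.9 CPM in EIC + S120 and 96.5 CPM in Control. C3ar1 followed this sum with r = 0.76, and Spearman's rho was lower, at 0.54. With Adgre1 it had r = 0.76, which became 0.59 without EIC + S60 72 and EIC 67. The genes closest to C3ar1 were Ptprc, the common leukocyte antigen CD45 (r = 0.89), and the interferon-inducible GTPases Irgm2 (r = 0.88) and Irgm1 (r = 0.87). The sum of 12 interferon-gamma-inducible genes, Irgm1 and Irgm2 among them, was 372 CPM in EIC 67 and 140 to 169 CPM in Control. Of 11 tested, 8 were called higher in EIC vs. Control, beside 1.61% of all genes. C3ar1 had r = 0.81 (rho = 0.74) with this sum. With the T cell sum, which was at most 1.79 CPM, it had r = 0.61 (rho = 0.71). These marker lists were chosen with earlier results of these data known. Neutrophil markers stayed at 0.871 to 3.60 CPM in sum over the 20 libraries, and S100a8 had at most 10 counts in any of them. Cfp followed the macrophage sum with r = 0.68 (rho = 0.48), and its closest genes were Hirip3 (r = 0.83), Ccm2l (r = 0.78) and Tcf7l2 (r = 0.77). The part of macrophage number in the levels of C3ar1 and Cfp was not tested.

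**Figure D5:**
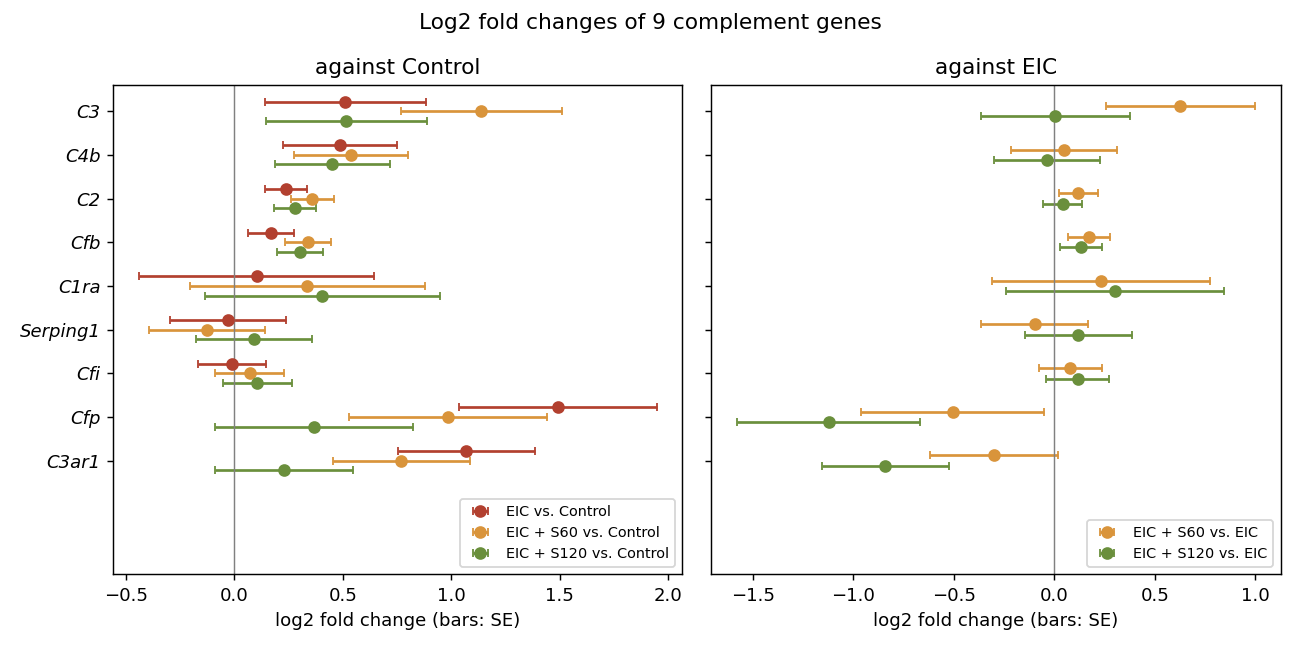
LFC of the 9 genes by edgeR (x axis, log2), with bars for SEs by limma. Left, against Control for EIC, EIC + S60 and EIC + S120, and right, against EIC for EIC + S60 and EIC + S120. C2, Cfb, C3 and C4b lie right of 0 in all 3 comparisons with Control, and C3ar1 and Cfp lie left of 0 against EIC, with no call among them.

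The rest of the complement system was read from a list of 48 further genes, of which 40 were listed and 33 tested. In EIC vs. Control 5 of 33 were called higher by edgeR, as were 1.61% of all genes, and 0 lower. At an unadjusted p under 0.05, 6 were higher and 1 lower, beside 16.8% of all genes, and DESeq2 called 5 and limma-voom 4. They were the chains of C1q, which recognises antibody in complexes, and a pair of integrin chains of complement receptors. C1qa averaged 20.1 ± 9.48 CPM in EIC and 7.35 ± 1.63 CPM in Control (SD, n = 5 each), an LFC of 1.46 (adjusted p = 0.00437). C1qb and C1qc had LFCs of 1.49 and 1.47 (adjusted p = 0.00379 and 0.00576), and all 3 were called in each of 20 fits with 1 library left out. Itgb2, the shared beta chain of complement receptors 3 and 4, had an LFC of 1.18 (adjusted p = 0.0496) and was called in 4 of those 20 fits. Itgax, the alpha chain of complement receptor 4, had an LFC of 1.17 (adjusted p = 0.0342) and was called in 15 of the 20. Without EIC 67 the adjusted p was 0.167 for Itgb2 and 0.116 for Itgax.

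In EIC + S60 vs. Control 0.808% of all genes were called higher, and among the 33 edgeR called Itgax (LFC 1.21, adjusted p = 0.0425, in 6 of 20 fits with 1 library left out), with adjusted p of up to 0.127 without EIC + S60 71. DESeq2 called 2 genes there and limma-voom 1. In EIC + S120 vs. Control, where 2.89% of all genes were called higher, the calls were Mbl2, a mannose-binding lectin (LFC 1.12, adjusted p = 0.0463, in 5 of 20 fits), and C6, a terminal component (LFC 1.22, adjusted p = 0.04997, in 3 of 20 fits). DESeq2 called both, and limma-voom called 0 of the 33 there (adjusted p = 0.0765 for Mbl2 and 0.0952 for C6). Mbl2 averaged 1.53 ± 0.589 CPM in EIC + S120 and 0.681 ± 0.137 CPM in Control, and C6 averaged 1.499 ± 0.631 CPM in EIC + S120 and 0.638 ± 0.25 CPM in Control (SD, n = 5 each). Without EIC + S120 79 the adjusted p of Mbl2 was 0.140, and without Control 653 that of C6 was 0.104. Against EIC, edgeR called 0 of the 33 genes with either dose. At an unadjusted p under 0.05, 1 was higher and 5 lower in EIC + S60 vs. EIC, beside 6.05% of all genes. In EIC + S120 vs. EIC 2 were higher and 6 lower, beside 8.45% of all genes. DESeq2 called 0 and 2 of the 33 in these comparisons, beside 5 and 65 of all genes. By limma-voom 0 of the 33 were called in each. EIC + S120 vs. EIC + S60 gave 0 calls by edgeR, DESeq2 and limma-voom. At an unadjusted p under 0.05, 1 was higher and 3 lower there, beside 8.08% of all genes.

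Set beside each other, the LFCs of C1qa and C3 were 1.46 and 0.51 in EIC vs. Control (adjusted p = 0.00437 and 0.523 by edgeR). In EIC + S60 vs. EIC they were -0.68 and 0.63 (adjusted p = 0.754 and 0.829 by edgeR). For EIC + S120 vs. EIC they were -0.85 and 0.01 (adjusted p = 0.344 and 0.999 by edgeR), so neither gene was called against EIC. The difference between the genes was not tested. C3ar1 had r = 0.75 with C1qa over the 20 libraries.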

How the data were processed

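Kidney RNA of 20 mice was sequenced from poly(A) libraries, 1 library per mouse. Per the labels and the submitters' processing notes, the authors used Trimmomatic 0.36 for trimming and STAR 2.5.2b for alignment to GRCm38, and deposited raw counts per gene made by featureCounts of Subread 1.5.2. The sources used here give neither the annotation nor the strand setting. The tables had 0 columns of per-sample values without a sample.

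The test took genes that reached 10 counts in 5 or more of 20 libraries (13990 of 15780). Counts were scaled by TMM and fitted over all 4 groups by the robust quasi-likelihood method of edgeR 4.0.16 in R 4.3.3, with p-values adjusted by Benjamini-Hochberg over every tested gene and a threshold of 0.05. SEs came from limma 3.58.1 (log2 CPM, prior count 2), and LFCs and p-values from edgeR. An LFC over its SE is therefore not the statistic that was tested. CPM use TMM-scaled library sizes, and RPKM divide them by the exon length of GENCODE vM21. Each group has 5 mice, and counting error is largest for genes of few counts. The steps were tested on simulated data.

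Alternatives were RLE scaling, DESeq2 1.42.0, limma-voom, no filter, at least 50 counts, the compared groups alone, and leaving out libraries. All 9 members are named in every comparison, other complement genes where called, and the 3 genes most alike each member by Pearson's r. The members and lists were chosen with earlier results of these data known. Promoters were taken from RefSeq (GRCm38.p6), and C1ra and C1rb were aligned with Biopython 1.88. Intervals of shares come from SciPy 1.17.1.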

Additional observations from a re-analysis of the deposited data

Results flagged for a closer look

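In 3 of 40 groups of 5 values (the 9 genes and C1rb summed with C1ra, in 4 groups), the highest mouse lay far from the others, with a gap to the nearest mouse above 0.71 of the group's range. Chance gives about 1 such group in 20. C2 was at 70.3 CPM in EIC 66, and the next EIC mouse was at 62.4 CPM. Serping1 was at 68.0 CPM in EIC + S120 77, and the next mouse of that group was at 45.2 CPM. Cfp was at 1.73 CPM in EIC + S60 72, and the next mouse of that group was at 0.492 CPM.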

How the results depend on the processing

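No paired analysis was possible because the mouse numbers differ between all groups. With 1 library left out at a time, members called by edgeR ranged from 0 to 1 in EIC vs. Control (C3ar1, without EIC 68) and from 0 to 2 in EIC + S60 vs. Control and in EIC + S120 vs. Control. Members without overlap, higher in EIC than in Control, ranged from 0 to 2, beside 2.38% to 3.23% of all genes. Without both deeper Control libraries, 2 members were called in EIC + S60 vs. Control and 2 in EIC + S120 vs. Control, DESeq2 called 1 in EIC + S60 vs. Control, and without Control 651 and EIC + S120 77, chosen after seeing the data, 2 were called in each of the 3 comparisons with Control. No other alternative called a member.

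The sign of 19 of 54 LFCs, none of them called with all libraries, turned in at least 1 fit, 59 of 1554 values in all. The cause was not tested. Leaving out 1 library gave ranges in EIC vs. Control of -0.16 to 0.25 for C1ra, -0.15 to 0.15 for Serping1 and -0.11 to 0.12 for Cfi. In EIC + S60 vs. EIC they were -0.077 to 0.29 for C4b, -0.28 to 0.014 for Serping1, -1.19 to 0.13 for Cfp and -0.52 to 0.19 for C3ar1. In EIC + S120 vs. EIC they were -0.14 to 0.36 for C3, -0.29 to 0.20 for C4b and -0.056 to 0.23 for Serping1. Against Control, Serping1 gave -0.31 to 0.043 in EIC + S60 and -0.079 to 0.26 in EIC + S120, and Cfi gave -0.0031 to 0.19 in EIC + S60. In EIC + S120 vs. EIC + S60 they were -0.33 to 0.051 for C4b, -0.11 to 0.0027 for C2, -0.071 to 0.028 for Cfb, -0.068 to 0.34 for C1ra, -0.039 to 0.11 for Cfi and -0.81 to 0.062 for Cfp. EIC 67 alone turned C3ar1, Cfp and Serping1 in EIC + S60 vs. EIC.

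Without both deeper Control libraries, EIC vs. Control gave -0.10 for C1ra and 0.13 for Cfi. Without Control 651 and EIC + S120 77 it gave -0.17 for C1ra and 0.11 for Cfi, Serping1 had -0.059 in EIC + S120 vs. EIC and -0.077 in EIC + S120 vs. Control, and in EIC + S120 vs. EIC + S60 C2 had 0.0039 and Cfb 0.030. With at least 50 counts Cfi had 0.00078 in EIC vs. Control and C3 -0.0071 in EIC + S120 vs. EIC. By limma-voom Cfi had -0.0010 in EIC + S60 vs. Control and C1ra -0.19 in EIC + S120 vs. EIC + S60.

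Counts of all genes called depended on the tool and the libraries. In EIC vs. Control they were 416, against 704 by DESeq2, 146 with the 2 groups alone, 124 without both deeper Control libraries and 233 to 465 with 1 library left out. In EIC + S60 vs. Control they were 180, against 359 by DESeq2, 119 without both deeper Control libraries and 103 to 224 with 1 left out. In EIC + S120 vs. Control they were 777, and 489 (without EIC + S120 81) to 1172 (without EIC + S120 77) with 1 left out. EIC + S120 vs. EIC gave 8, against 65 by DESeq2 and 1 to 14 with 1 left out, EIC + S120 vs. EIC + S60 gave 9, against 81 and 2 to 54, and EIC + S60 vs. EIC gave 0, against 5 and 0 to 1. Without Control 651 and EIC + S120 77 the counts were 306 for EIC + S60 vs. Control, 1284 for EIC + S120 vs. Control, 47 for EIC + S120 vs. EIC and 82 for EIC + S120 vs. EIC + S60. Depth limits Cfp, C3ar1 and C4b most, with as few as 3, 12 and 31 counts in a library.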
